A study of Mus musculus with 4 samples.

Results

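The oxidoreductase families examined here were the alcohol dehydrogenases (Adh), aldehyde dehydrogenases (Aldh), aldo-keto reductases (Akr) and flavin-containing monooxygenases (Fmo). Their members were taken as every gene whose annotated symbol is Adh, Aldh, Akr or Fmo followed by a digit, with Akr1d1 left out. This gave 42 of the 16593 genes named on the array, made up of 4 Adh, 20 Aldh, 13 Akr and 5 Fmo genes on 64 probes. Another 8 such genes of the mouse RefSeq table, among them Adh6a and Akr1b7, had no probe named here. RNA of whole livers was measured on Illumina MouseRef-8 v2.0 arrays, 2 of them for DKO livers and 2 for control livers. DKO animals carried the genotype Lats1-/-;Lats2f/fl;Alb-cre and control animals are labelled wild type. All were of the B6;129 mixed strain at postnatal day 1, and the neonates are said to come from shared pregnancies. In DKO animals Lats1 is missing in every cell, whereas Lats2 is deleted by a Cre recombinase driven by the albumin promoter, that is, in hepatoblasts and the cells that descend from them. Lats1 and Lats2 encode kinases of the Hippo pathway, which hold the co-activators YAP and TAZ back from the nucleus. Whether every sample was a different animal is not stated, and p-values therefore reflect only how far these samples spread, which for the DKO pair may be technical.

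These families carry out much of the alcohol, aldehyde and foreign compound chemistry of the liver. Adh enzymes oxidise alcohols such as ethanol and retinol to aldehydes, and Aldh enzymes oxidise aldehydes to acids in the cytosol, mitochondria and endoplasmic reticulum. Akr enzymes mostly run the other way, reducing aldehydes, ketones and steroids with NADPH, and Fmo enzymes add oxygen to nitrogen and sulphur atoms of drugs and dietary amines. Many of them are most abundant in hepatocytes.

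A probe counted as detected where its detection p-value against the negative controls was under 0.05, which held for 48.7% to 53.1% of the 25697 probes on an array. The number of arrays limits the precision. All 4 livers are labelled female, but the Y-linked gene Eif2s3y read 4.76 and 4.94 in the DKO livers and 4.69 in control replicate 1 against 11.31 in control replicate 2 (normalized log2 intensity), so the control livers were not from the same animal. That array went against its label, and the calls lost without it are given with each gene. The Lats2 probe averaged 6.30 in DKO livers and 5.69 in control livers, a log2 change of 0.61 (SE 0.37, limma adjusted p = 0.53), and where it lies with respect to the floxed exons is not known here. All 13 tested hepatocyte markers were detected on 1 or more arrays of each group. Of these 13, 2 were lower (Cyp2e1 and Cyp3a11) and 0 higher in DKO livers and 11 had a negative change (median log2 change -0.89). Cyp2e1, Cyp3a11 and Tat were detected in 1 of the 2 DKO livers, and Tat in 1 of the 2 control livers. The summed normalized intensity of the list was 251950 and 207726 in DKO replicates 1 and 2 and 310027 and 278311 in control replicates 1 and 2. That sum rests mostly on Trf, Ttr and Apoa1, bright genes (log2 means of 15.97, 15.70 and 15.59 in DKO livers). Their log2 changes were 0.031, 0.025 and -0.083, but near the top of the intensity range a change can be compressed. Trf had raw intensities of 66249 and 60618 in DKO livers and 67763 and 62473 in control livers. How far these changes were compressed was not tested. Of 7 tested biliary epithelial markers 5 were higher and 0 lower, with sums of 35527 and 73976 in DKO replicates 1 and 2 and 3329 and 7342 in control replicates 1 and 2. Krt8 and Krt18 carry most of these sums, with log2 means of 14.81 and 14.00 in DKO livers and 11.62 and 10.56 in control livers. Krt7, Krt19 and Cldn4, the others called higher, averaged 11.09, 9.59 and 11.26 in DKO livers. In control livers they averaged 6.08, 4.84 (Krt19, not detected) and 5.77. Without control replicate 1, 3 of these 5 biliary markers and 1 of the 2 hepatocyte markers lost their call. By limma 0 of 5 erythroid, 0 of 9 macrophage and granulocyte, 0 of 8 endothelial and 0 of 12 stellate markers passed in either direction, with medians of -1.07 (5 of 5 negative), -0.50 (9 of 9 negative), -0.48 (6 of 8 negative) and -0.086 (7 of 12 negative). The erythroid sums were 103886 and 99167 in DKO livers and 142920 and 148081 in control livers. They rest mostly on Hba-a1 and Slc4a1, with log2 changes of -0.040 and -0.95, and Hba-a1 too lies at the top of the intensity range. The part of these marker shifts in the results below was not tested.

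Loss of Lats1/2 was accompanied by lower expression of 6 family members and by higher expression of 0 members (limma, adjusted p under 0.05; at an unadjusted p under 0.05 the counts were 14 and 1). The genes that fell were Aldh8a1, Akr1c18, Aldh1l1, Adh1, Fmo5 and Aldh1b1, 1 or more from each of the 4 families. They stood among 30 members tested, and 1.68% of all 9502 genes tested were called lower and 1.75% higher by the same fit, 3.43% in either direction. In bulk liver RNA, fewer hepatocytes and less RNA per hepatocyte cannot be told apart. A member was tested if its probe was detected on at least 2 of the 4 arrays. All 30 were detected in both control livers, and 3 of them, Aldh8a1, Akr1c18 and Aldh1a7, passed this filter through the control arrays alone and had to differ. With detection on all 4 arrays required, 25 members remained and 4 were called lower, among 89 of 7889 genes. Fits without 1 array changed the number of calls over all genes as well as among members, so their counts are not compared. The calls of Adh1, Aldh1b1, Aldh1l1 and Fmo5 depended on single arrays, as given with each gene.

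**Figure D1:**
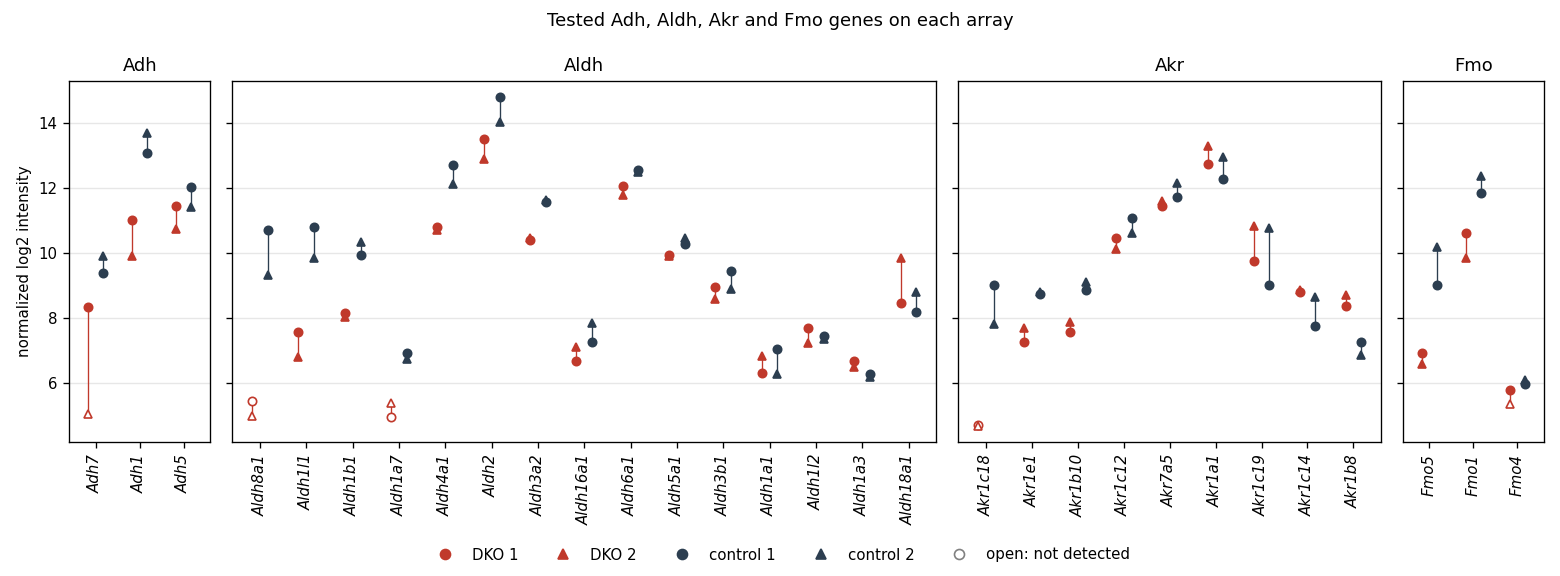
Normalized log2 intensity of the 30 tested members on each array, in panels by family, with DKO livers (red) left of control livers (dark) and each line joining the 2 arrays of a group. Circles are replicate 1, triangles replicate 2 and open symbols arrays on which the probe was not detected, as for Aldh8a1, Akr1c18 and Aldh1a7 in both DKO livers.

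Among the alcohol dehydrogenases, Adh1 fell and Adh7 was low in 1 DKO liver. Adh1 is the class I enzyme that oxidises ethanol and retinol in liver. Its raw intensity (arbitrary units, before normalization between arrays) was 2222 and 1075 in DKO replicates 1 and 2, against 9132 and 13332 in control replicates 1 and 2. Both DKO livers lay far under both control livers. The log2 change was -2.92 (SE 0.47, limma adjusted p = 0.020), or 7.55-fold lower, and a second Adh1 probe gave -2.86 without passing (adjusted p = 0.067). Leaving out control replicate 1 (-3.28) or control replicate 2 (-2.59) ended the call, and the change was -3.47 and -2.35 without DKO replicate 1 and 2. Adh7, the class IV retinol-oxidising enzyme best known from the stomach lining, read 472 and 180 in DKO replicates 1 and 2 against 914 and 1015 in control livers. It was detected in DKO replicate 1 but not in DKO replicate 2, and its log2 change of -2.95 (SE 0.94) did not pass (adjusted p = 0.18). In a fit without 1 array the group left with a single array is assumed to spread like the other group. With DKO replicate 1 left out, which removes the spread between the DKO arrays, Adh7 was called, at least 16.3-fold lower, whereas with DKO replicate 2 left out the log2 change was -1.30 (adjusted p = 0.38).

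Adh5 is the broadly expressed class III enzyme that oxidises the glutathione adduct of formaldehyde. Its brightest probe read 2907 and 1816 in DKO livers against 4822 and 2710 in control livers, so the groups overlapped. The log2 change was -0.64 (SE 0.41, adjusted p = 0.56), and its other probes gave -0.12 and -0.050. In RefSeq gene order Adh7, Adh1, Adh6a, Adh6b, Adh4 and Adh5 are neighbours on chromosome 3, and the difference in change between Adh1 and Adh5 was not tested. Adh4, the class II liver enzyme, was detected on 0 arrays, with raw intensities of 158 and 157 in DKO livers and 186 and 173 in control livers.

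The aldehyde dehydrogenases held 3 of the 6 falls. Aldh8a1, which oxidises aminomuconate semialdehyde in tryptophan breakdown and can also act on retinaldehyde, had the largest change of all members. Its raw intensity was 190 and 176 in DKO replicates 1 and 2, not detected in either, against 2071 and 737 in control replicates 1 and 2. A gene not detected in a group has only a bound, for which the higher of its own reading and the dimmest detected probe of each array was used. Aldh8a1 was at least 22.3-fold lower in DKO livers (limma adjusted p = 0.0044), with normalized log2 means of 5.20 ± 0.31 in DKO livers and 10.02 ± 0.97 in control livers (SD, n = 2 each). The bound was 13.3-fold without control replicate 1 and 36.3-fold without control replicate 2. Both fits kept the filter that Aldh8a1 passed through the control arrays alone, so it had to differ there too. Of its 2 dimmer probes, 1 passed (log2 change -2.99, adjusted p = 0.045). That probe was detected in DKO replicate 2 (raw intensity 206) but not in DKO replicate 1. The other, like the brightest probe, was not detected in either DKO liver. It was at least 2.63-fold lower and did not pass (adjusted p = 0.10).

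Aldh1l1 encodes the cytosolic enzyme that oxidises formyltetrahydrofolate, an exit from the folate one-carbon pool. It read 343 and 262 in DKO replicates 1 and 2 against 2202 and 965 in control replicates 1 and 2. The groups were well apart although the control livers differed from each other by more than the DKO livers did. The log2 change was -3.14 (SE 0.46, adjusted p = 0.015), or 8.84-fold lower, and 2 further probes fell with changes of -3.06 and -2.76 (adjusted p = 0.0080 and 0.014). A further Aldh1l1 probe was detected on 0 arrays. The call of the brightest probe was lost without control replicate 1 (-2.64, adjusted p = 0.082), and the change was -3.62 without control replicate 2, -3.55 and -2.76 without DKO replicate 1 and 2. Its mitochondrial counterpart Aldh1l2 read 356 and 298 in DKO livers and 347 and 299 in control livers, with a log2 change of 0.047 (SE 0.35; -0.18 without DKO replicate 1). In a list of other folate genes, 0 of 11 tested passed by limma in either direction, with a median of -0.34. The largest changes in it were -1.60 for Slc25a32, the mitochondrial folate carrier, and 1.09 for Mthfd2, a mitochondrial one-carbon enzyme, neither of which passed (adjusted p = 0.11 and 0.31).

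Aldh1b1, a mitochondrial enzyme for acetaldehyde and retinaldehyde, read 431 and 409 in DKO livers against 1271 and 1321 in control livers. The replicates of each group lay close together. The log2 change was -2.05 (SE 0.35, adjusted p = 0.024), or 4.13-fold lower. This was the call nearest the threshold, and leaving out control replicate 1 (-2.25), control replicate 2 (-1.83) or DKO replicate 2 (adjusted p = 0.056) each ended it. It was also the only one of the 6 calls kept with the authors' normalized values (-1.61, adjusted p = 0.046).

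The start regions of 3 of these genes are shown because the Lats kinases act on YAP, whose DNA-binding partner is TEAD, and because HNF4 and C/EBP factors are known regulators of hepatocyte genes. They are the 250 bases upstream of the RefSeq start site (build GRCm38.p6, plus strand), given for the largest fall, for Aldh1l1 with 3 called probes and for Adh1. Capitals mark a match to CAAAGTCC (HNF4), TTGCNNAA (C/EBP) or GGAATG (TEAD) on either strand.
Aldh8a1, chr10:21377050-21377299: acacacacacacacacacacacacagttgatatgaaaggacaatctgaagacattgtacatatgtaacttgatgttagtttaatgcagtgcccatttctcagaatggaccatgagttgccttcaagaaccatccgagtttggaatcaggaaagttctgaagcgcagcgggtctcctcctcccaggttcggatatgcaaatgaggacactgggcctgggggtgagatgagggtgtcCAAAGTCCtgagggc
Aldh1l1, chr6:90550543-90550792: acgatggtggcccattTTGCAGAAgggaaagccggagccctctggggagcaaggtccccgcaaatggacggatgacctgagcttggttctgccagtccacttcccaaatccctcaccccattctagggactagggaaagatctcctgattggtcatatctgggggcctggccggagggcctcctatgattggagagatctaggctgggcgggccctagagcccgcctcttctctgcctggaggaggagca
Adh1, chr3:138277335-138277584: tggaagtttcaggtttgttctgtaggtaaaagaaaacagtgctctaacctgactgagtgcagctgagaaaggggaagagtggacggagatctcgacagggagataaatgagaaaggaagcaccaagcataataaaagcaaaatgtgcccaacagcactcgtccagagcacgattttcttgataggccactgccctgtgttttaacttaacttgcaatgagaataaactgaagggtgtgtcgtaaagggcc

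Aldh8a1 holds the HNF4 letters 15 to 8 bases before its start site and Aldh1l1 holds the C/EBP letters 234 to 227 bases before its own. The Adh1 window holds none of the 3 motifs. Over all 32851 windows of this length, 1.20% held the HNF4 letters, 9.56% the C/EBP letters and 12.6% the TEAD letters. Of the 26 tested members with a window, 1 held the HNF4 letters, 3 the C/EBP letters and 3 the TEAD letters (Akr1c12, Aldh1a1 and Aldh6a1). A match describes letters only, and it is not a measured binding site.

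The remaining tested Aldh genes did not pass. Aldh1a7, a rodent paralog of the retinaldehyde dehydrogenase Aldh1a1, read 168 and 193 in DKO livers, not detected in either, against 287 and 247 in control livers. It was at least 2.42-fold lower (adjusted p = 0.054). Aldh4a1, which completes proline breakdown to glutamate, read 1934 and 1759 in DKO livers against 7518 and 4325 in control livers, with a log2 change of -1.67 (SE 0.36, adjusted p = 0.062). These values lay just outside the threshold, and both genes passed in a fit with an intensity-dependent and robust variance (limma adjusted p = 0.049 and 0.048), with ranges over their alternatives of 0.0041 to 0.25 and 0.0037 to 0.27.

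Aldh2, the mitochondrial enzyme that clears acetaldehyde after ethanol, read 11755 and 7772 in DKO livers against 27461 and 16951 in control livers. Its log2 change of -1.23 (SE 0.42) did not pass (adjusted p = 0.21), although the groups did not overlap. Aldh3a2, the fatty aldehyde dehydrogenase, read 10.41 and 10.47 in DKO livers and 11.57 and 11.64 in control livers on the normalized log2 scale, with a log2 change of -1.17 (SE 0.33, adjusted p = 0.13). Aldh6a1 of valine breakdown, Aldh5a1 of GABA breakdown, Aldh16a1 and Aldh3b1 had log2 changes of -0.61, -0.45, -0.64 and -0.40. In a list of proline, lysine, GABA, valine and choline breakdown genes outside the 4 families, 1 of 20 tested fell, 0 rose and 19 had a negative change, with a median of -1.29, where 1.68% of all genes tested were called lower and 4717 of 9502 had a negative change. The gene that fell was Pipox, a peroxisomal oxidase of sarcosine and pipecolic acid (-1.89, SE 0.38, adjusted p = 0.047), and it passed without DKO replicate 2 but not without any other array. Aldh18a1, which makes proline and ornithine precursors and so runs opposite to Aldh4a1, read 500 and 1040 in DKO livers against 481 and 553 in control livers. Its log2 change of 0.68 (SE 0.52, adjusted p = 0.64) rested on DKO replicate 2 and was -0.014 without it.

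The Aldh1a retinaldehyde dehydrogenases Aldh1a1, Aldh1a2 and Aldh1a3, which make retinoic acid, read close to background in both groups. Aldh1a1 read 231 and 263 in DKO livers against 300 and 222 in control livers, with overlapping groups and a log2 change of -0.099 (SE 0.41), which was 0.28 without control replicate 1 and 0.15 without DKO replicate 1. Aldh1a3 read 255 and 241 in DKO livers against 236 and 218 in control livers (0.35, SE 0.33, adjusted p = 0.72). Both probes of Aldh1a2 were detected on 0 arrays. Of 17 tested genes in a list of retinoid metabolism and response, 3 fell and 0 rose, with a median of -0.35. Over all genes tested 1.68% were called lower, with a median of 0.0046. Rdh5 and Rdh7 are retinol dehydrogenases of another enzyme family, and their log2 changes were -3.57 for Rdh5 (SE 0.52, limma adjusted p = 0.014) and -2.64 for Rdh7 (SE 0.33, limma adjusted p = 0.0090). Rdh9 was the other gene that passed. Rdh5 was detected in 1 of the 2 DKO livers and Rdh9 in neither. Rdh9 thus passed the filter through the control arrays alone and had to differ. Without control replicate 2 none of these 3 passed (adjusted p from 0.052 to 0.15), without control replicate 1 only Rdh7 did, and without DKO replicate 2 Rdh9 did not.

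In a list of ethanol and aldehyde enzymes outside the 4 families, 3 of 15 tested fell and 0 rose, with a median of -0.93. Over all genes tested the share called lower was 1.68% and the median 0.0046. The genes that fell were Cyp2e1, the ethanol-oxidising cytochrome P450 (-7.34, SE 0.65, limma adjusted p = 0.0033), Hao1, the glycolate oxidase of peroxisomes (-4.54, SE 0.37, limma adjusted p = 0.0030), and Acss1, which activates acetate in mitochondria. Cyp2e1 is also in the hepatocyte marker list and is the same fall counted there. The Acss1 call was lost without control replicate 1 or control replicate 2 (adjusted p = 0.12 and 0.092), whereas Cyp2e1 and Hao1 passed without any 1 array. Cyp2e1 was detected in 1 of the 2 DKO livers. Catalase (Cat), a minor ethanol-oxidising enzyme, had a log2 change of -0.93 and did not pass (adjusted p = 0.25).

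The aldo-keto reductases spread in both directions. Akr1c18, the 20-alpha-hydroxysteroid dehydrogenase that inactivates progesterone, was the only member of this family that fell. Its raw intensity was 153 in each DKO liver, not detected in either, against 745 and 353 in control replicates 1 and 2. It was at least 7.34-fold lower in DKO livers (adjusted p = 0.0080), with log2 means of 4.68 ± 0.024 in DKO livers and 8.42 ± 0.84 in control livers (SD, n = 2 each). The bound was 4.70-fold without control replicate 1 and 11.2-fold without control replicate 2. Akr1c18 also passed the filter through the control arrays alone, so it had to differ in both fits. In RefSeq gene order Akr1c18 lies in a run of 9 genes that also holds Akr1c14, Akr1c19, Akr1c12 and Akr1e1, and transcripts of close Akr1c paralogs can share a probe.

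Its measured neighbours did not pass and differed in sign. Akr1c14, a 3-alpha-hydroxysteroid dehydrogenase, read 590 and 605 in DKO livers against 395 and 519 in control livers with a log2 change of 0.64 (SE 0.41, adjusted p = 0.56), and its second probe gave 0.72. Leaving out control replicate 1 gave 0.18 and leaving out control replicate 2 gave 1.08. Akr1c19 read 1011 and 1920 in DKO replicates 1 and 2 against 745 and 1742 in control replicates 1 and 2, so the arrays of a group differed more than the groups did. Its log2 change of 0.40 (SE 0.64) was -0.48 without control replicate 1 and -0.14 without DKO replicate 2. Akr1c12 read 1547 and 1218 in DKO livers against 2584 and 1580 in control livers (-0.57, SE 0.36). Akr1e1, the anhydrofructose reductase of glycogen breakdown, read 305 and 354 in DKO livers against 637 and 557 in control livers (-1.30, SE 0.35, adjusted p = 0.12). Akr1c6 was detected on 1 control array, and Akr1c20 and Akr1c21 on 0 arrays.

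Akr1b8, an aldose-reductase-like enzyme first described as induced by fibroblast growth factor, had the largest positive change of all members. It read 479 and 560 in DKO livers against 323 and 255 in control livers, with no overlap. The log2 change was 1.49 (SE 0.35) and did not pass over all genes (adjusted p = 0.083, range 0.0084 to 0.35 over its alternatives). Akr1b10, its neighbour in gene order and another aldose-reductase-like enzyme, read 344 and 382 in DKO livers against 679 and 650 in control livers, a log2 change of -1.24 (SE 0.34, adjusted p = 0.13). The difference between these changes was not tested. Akr1a1, the aldehyde reductase that serves ascorbate synthesis in mice, read 6816 and 10083 in DKO livers against 5699 and 7812 in control livers (0.38, SE 0.40, adjusted p = 0.76; 0.037 without control replicate 1), and its other probes gave 0.27 and 0.30. Akr7a5, a reductase of aflatoxin aldehyde and succinic semialdehyde, had a log2 change of -0.41 (SE 0.35), with -0.38 and -0.37 on its other probes.

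The flavin-containing monooxygenases tested all had negative changes, and Fmo5 passed. Fmo5, a liver form that oxygenates ketones, read 273 and 248 in DKO replicates 1 and 2 against 747 and 1189 in control replicates 1 and 2. The DKO livers agreed closely with each other and lay well under both control livers. The log2 change was -2.86 (SE 0.46, limma adjusted p = 0.020), or 7.27-fold lower. The call was lost without control replicate 2 (-2.26, adjusted p = 0.081), and the change was -3.44 without control replicate 1, -3.04 and -2.69 without DKO replicate 1 and 2. The second Fmo5 probe was detected on 0 arrays.

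Fmo1, an oxygenase of drugs with nitrogen and sulphur groups, read 1706 and 1027 in DKO livers against 4256 and 5161 in control livers. Both DKO livers were under both control livers, but the log2 change of -1.89 (SE 0.41) did not pass (adjusted p = 0.061), and it passed without DKO replicate 1 (-2.29, adjusted p = 0.015), where the spread comes from the control pair alone. Fmo4 lay near the lowest detected values, with 205 and 193 in DKO livers against 219 and 214 in control livers (-0.47, SE 0.35, adjusted p = 0.62). Fmo2, known from lung, was detected on 1 DKO array and on 0 control arrays, and Fmo9 on 0 arrays.

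**Figure D2:**
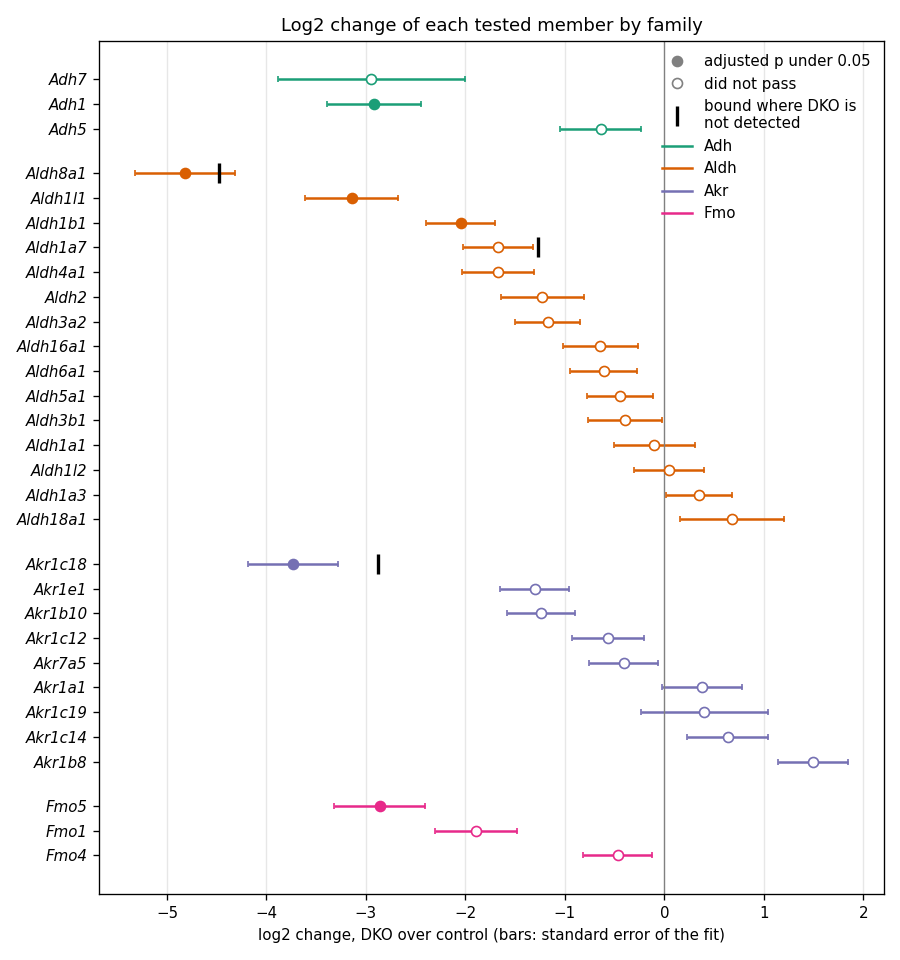
Log2 change (DKO over control) of the 30 tested members, grouped by family, with bars for the standard error of the fit. Filled points are the 6 members past the threshold, and black ticks are the bounds of Aldh8a1, Aldh1a7 and Akr1c18, which were not detected in DKO livers.

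The calls lower were 1 of 3 Adh, 3 of 15 Aldh, 1 of 9 Akr and 1 of 3 Fmo genes tested, against 1.68% of all genes tested. The median log2 change was -2.92 for Adh, -0.64 for Aldh, -0.41 for Akr and -1.89 for Fmo genes, against 0.0046 over all genes tested, and these medians were the same with undetected genes at their bounds. Negative changes were found in 3 of 3 Adh, 12 of 15 Aldh, 5 of 9 Akr and 3 of 3 Fmo genes, against 4717 of all 9502 genes tested. The DKO values lay under both control values in 20 members and above both in 3, where 22.8% of all genes tested lay under and 22.7% above. At an unadjusted p under 0.05, 14 members were lower and 1 higher, against 8.03% and 8.05% of all genes tested. The Adh and Fmo medians rest on 3 genes each. With undetected probes tested as well, the medians were -1.78 for Adh, -0.45 for Aldh, -0.41 for Akr and -0.47 for Fmo genes, and with detection on all 4 arrays required, which leaves out Akr1c18, the Akr median was -0.014 and the Fmo median -2.38. Without DKO replicate 2 the Adh median was -1.30, and without control replicate 2 the Akr median was -0.20. The differences between families were not tested.

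**Figure D3:**
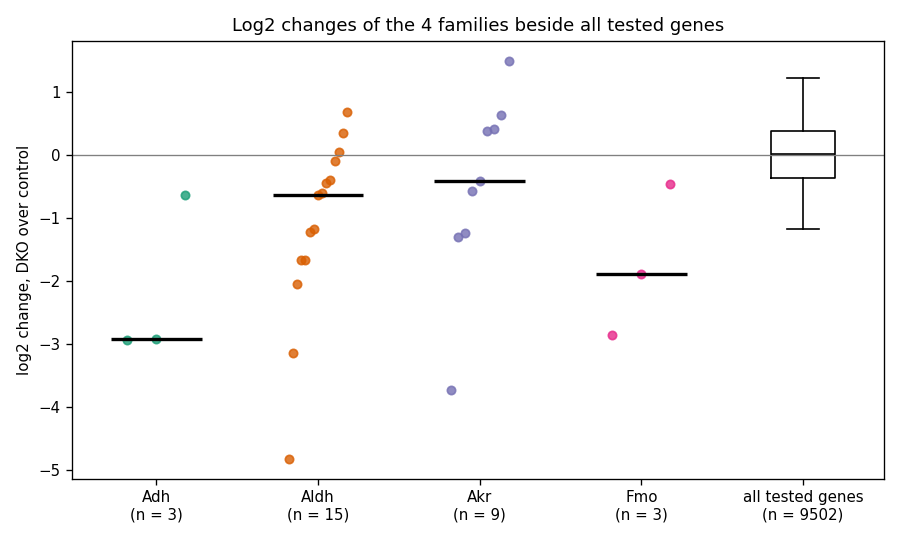
Log2 change (DKO over control) of each tested member, 1 point per gene, with a bar at the family median, beside all 9502 tested genes as a box (quartiles) with whiskers from the 5th to the 95th percentile. The medians run from -2.92 for Adh to -0.41 for Akr, with the median of all genes at 0.0046.

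The 2 DKO livers did not show the same depth of change in every family. Measured against the control mean, the median change of the Adh genes was -1.30 in DKO replicate 1 and -3.48 in DKO replicate 2. These 2 medians fall on different genes, Adh7 in DKO replicate 1 and Adh1 in DKO replicate 2. Adh1 read 11.03 and 9.91 (log2) in DKO replicates 1 and 2 against a control mean of 13.39. Adh7 read 8.34 and 5.04, the second not detected, against 9.64. The medians of the Fmo genes were -1.499 and -2.28, of the Aldh genes -0.86 and -0.75 and of the Akr genes -0.40 and -0.33 in DKO replicates 1 and 2. The biliary marker sum, carried mostly by Krt8 and Krt18, was higher in DKO replicate 2 than in DKO replicate 1 and the hepatocyte marker sum lower. Control replicates 2 and 1 differed in the same direction in both sums, as given above. The part of these sums in the values was not tested. The plot of fits without 1 array shows how the 15 members with an unadjusted p under 0.05, 6 of them called, moved in these fits.

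**Figure D4:**
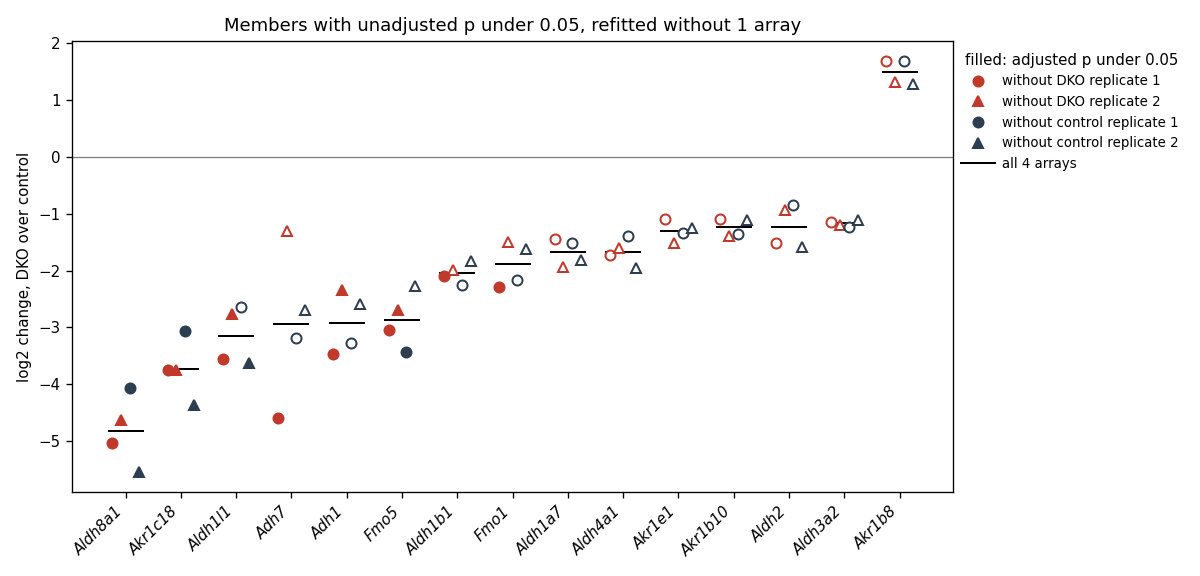
Log2 change (DKO over control) of the 15 members with an unadjusted p under 0.05, refitted without 1 array at a time (symbols) beside the fit with all 4 arrays (bars), with filled symbols past the threshold. Aldh8a1 and Akr1c18 entered the test through the control arrays alone and had to differ, in these refits as well. Adh7 ran from -4.59 without DKO replicate 1 to -1.30 without DKO replicate 2.

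The other 12 members were not tested, because no probe of theirs was detected on 2 arrays. They were Adh4, Aldh1a2, Aldh3a1, Aldh3b3, Aldh7a1, Aldh9a1, Akr1c6, Akr1c20, Akr1c21, Akr1cl, Fmo2 and Fmo9. 3 of them (Akr1c6, Akr1cl and Fmo2) were detected on 1 array each and the other 9 on 0 arrays. Aldh7a1, which breaks down lysine aldehydes, read 178 and 162 in DKO livers and 188 and 190 in control livers, and Aldh9a1, an enzyme of carnitine synthesis, read 180 and 170 in DKO livers and 165 and 160 in control livers. A probe below detection gives no statement on whether its gene differs.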

How the data were processed

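The authors deposited the linear intensity of every probe before normalization. Beside each intensity stood a detection p-value, also deposited. A second deposited table held normalized intensity of the same arrays, nearly equal in distribution (medians of 197.86 to 198.09), but the sources used here do not name the normalization. Groups and replicate numbers came from the sample titles, and platform annotation named the probes; all 42 symbols matched RefSeq (GRCm38.p6) by Entrez identifier.

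Background was corrected by normexp in limma 3.58.1 (R 4.3.3), taking the negative-control mean and SD from the detection p-values, at an offset of 16, then quantile normalized and log2 transformed. The offset pulls changes of dim probes toward 0. Probes detected (p under 0.05) on at least 2 arrays were tested (13654 of 25697) by lmFit and eBayes, two-sided, without a block, with p-values adjusted by Benjamini-Hochberg across every tested probe and a threshold of 0.05. The brightest tested probe stood for a gene. The fit was tested on simulated data. Fits without 1 array kept these probes and renormalized the rest.

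The members, gene lists and tests were chosen with earlier results of these data known. Members past the threshold and the 2 largest other changes per family were described in full, others as counts or values. From each list, up to 2 rises and 2 falls, or else the 2 largest changes, were given values. Values of Cat, Nqo1, Gclc and Gclm fall outside this rule and were chosen after they were seen. Promoter windows were searched for 3 motifs on both strands. Alternatives changed the background correction, normalization, filter, probe rule, variance model, threshold, block and arrays; the genes without a named probe were not analysed here.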

Additional observations from a re-analysis of the deposited data

How the results depend on the processing

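The 6 falls kept their direction in every alternative that tested them (Aldh8a1 and Akr1c18 could not be tested with detection on all 4 arrays), but their calls depended on the settings. With no background correction, and with undetected probes tested as well, 0 members were called lower by limma (adjusted p from 0.052 to 0.11 and from 0.077 to 0.14 for the 6 genes). These fits called 71 of 9502 and 26 of 16593 genes lower. At an unadjusted limma p under 0.05, 15 and 16 members were lower. All genes were not counted at that threshold in these 2 fits, so these counts have no share to be read against. With the authors' normalized values 1 member was called, among 79 of 9502 genes. A paired two-sided t-test on same-numbered samples was also run, which the authors name for their statistics but not for the arrays. With only 2 pairs it could hardly pass after adjustment. It called 5 members lower and 0 higher at an unadjusted p under 0.05, among 555 and 407 genes, and 0 after Benjamini-Hochberg. Of the 6 falls these 5 held only Aldh1l1, the others being Adh5, Akr1b10, Aldh2 and Aldh3a2. At a threshold of 0.10 the counts were 9 lower and 1 higher, among 253 and 266 genes. At an unadjusted limma p under 0.05 they were 14 and 1, among 763 and 765 genes. With the replicate block 14 members were lower and 1 higher, among 672 and 680 genes; the numbers are those of the sample titles, while another label field gives both control samples the number 1 and both DKO samples the number 2. No label says that a number marks a shared litter, and deviations of same-numbered arrays correlated at 0.54 across probes. Leaving out 1 array gave 3 to 8 members lower and 0 higher. The number of calls over all genes changed in these fits as well. This range is therefore not read as a measure of stability, and its counts are not compared.

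The Adh median was -1.65 with no background correction, -1.76 with the authors' values, and -1.78 both with undetected probes tested and with detection on all 4 arrays, and ran from -3.47 to -1.30 without 1 array. The Aldh median was -0.53 with no background correction and -0.45 with undetected probes tested, and ran from -0.86 to -0.69. The Akr median was -0.014 with detection on all 4 arrays and ran from -0.48 to -0.20. The Fmo median was -0.47 with undetected probes tested and -2.38 with detection on all 4 arrays, and ran from -2.29 to -1.49. Signs turned only without 1 array and in uncalled genes, for Akr1c19 (range -0.48 to 1.29, and -0.14 without DKO replicate 2), Aldh18a1 (-0.014 to 1.37), Aldh1a1 (-0.49 to 0.28, and 0.15 without DKO replicate 1) and Aldh1l2 (-0.18 to 0.27). For dim genes the distance to background limits the change that can be seen.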

Other observations

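Some Akr1b genes respond to NRF2, a transcription factor of the oxidant response, in other settings. A list of genes of that response was therefore read on the same arrays. Of 19 tested, 0 passed by limma in either direction, and 12 had a positive and 7 a negative log2 change, with a median of 0.16. Over all 9502 genes tested, 4785 had a positive change, with a median of 0.0046. The largest changes were 1.63 (SE 0.45, adjusted p = 0.13) for Abcc3, a conjugate exporter, and 1.54 (SE 0.36, adjusted p = 0.076) for Me1, the cytosolic malic enzyme. Nqo1, a quinone reductase often used as a readout of NRF2, had a log2 change of 0.13 (SE 0.37), and the glutathione synthesis genes Gclc and Gclm had 1.24 and -0.49, none of which passed.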
